A study of Mus musculus with 3 samples.

Results

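The collagen genes were described in the mouse genital tubercle, from which the external genitalia grow. A member was any gene whose symbol reads Col, a number, a, a number and that had a probe set annotated to that 1 symbol. This gave 42 genes on 82 probe sets, of 18193 genes measured in all. By structure and tissue they were divided into 8 fibrillar, 7 cartilage, 9 basement membrane, 6 FACIT (fibril-associated, with interrupted triple helices), 4 transmembrane and 8 other collagens. The fibril-forming Col2a1, Col11a1 and Col11a2 and the FACIT chains Col9a1, Col9a2 and Col9a3 were placed with the cartilage collagens. The samples were 3 tubercles from embryos labelled male, of embryonic day 14 and Theiler stage 22, each on 1 array and none pooled. All carried an SMAA/EYFP reporter transgene, brought in by the fathers and named for smooth muscle actin, and had FVB/N mothers. The reporter's expression guided the dissection, so the tissue is a region with all its cell types. There was 1 group and no treatment or control. The 1 label that differed was the landmark of limb development, with visible fingers in replicate 3 and indented footplates in replicates 1 and 2.

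Collagens are trimers of chains wound into a triple helix. Fibrillar collagens assemble into the banded fibrils that give mesenchyme, dermis and bone their tensile strength, and type IV collagens form the sheet-like network of basement membranes under epithelia and around vessels. FACIT collagens sit on fibril surfaces, and transmembrane collagens anchor cells to the matrix. A chain must be hydroxylated, folded, trimmed and cross-linked before it bears load, so the enzymes of these steps were described too.

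Each value is the deposited intensity of a gene's brightest probe set, called its signal, and triplets are in the order of replicates 1, 2 and 3. Background was the 95th percentile of 80 probe sets for odour, vomeronasal and bitter taste receptors, which came to 136, 253 and 199. Above it in all 3 samples lay 48% of 45037 probe sets. The label of sex did not hold for 1 sample. Xist, which coats the inactive X chromosome of females, read 8.05, 118 and 61883, whereas the Y-linked Eif2s3y read 4384, 3738 and 37.9. Replicate 3 thus goes against its male label, so the count of genes is also given without it, and replicates 1 and 2 are compared on their own. RNA control probe sets differed as well. The ratio of the 3′ to the 5′ Gapdh probe set was 21.5, 14.9 and 14.1, and that of β-actin 7.38, 2.21 and 4.42. Of the tissue's own markers, 7 of 7 for mesenchyme, 6 of 8 for epithelium and 3 of 6 for smooth muscle were above background in all samples. Liver markers summed to 112475, 52053.7 and 9136. The part of RNA quality or of such other tissue in the collagen values was not tested. Levels of different probe sets are not compared with each other, and 3 arrays limit the precision throughout.

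Most collagen genes were present in the tubercle, where present means above background in 3 of 3 samples. Of 42 genes, 32 (76.2%) were above background in all 3 samples, against 60.5% of the 18193 genes measured. A further 2 genes, Col2a1 and Col9a1, were above it in 2 samples and 8 in none. By probe set the count was 54 of 82 (65.9%) against the 48% of all probe sets. Collagen genes had 1.95 probe sets each and all genes 1.92, from which the brightest was taken. Without replicate 3 the count was 33 of 42 genes, against 62.2% of all genes. The classes were not alike, with 8 of 8 fibrillar and 4 of 4 transmembrane genes above background but 2 of 7 cartilage genes.

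**Figure D1:**
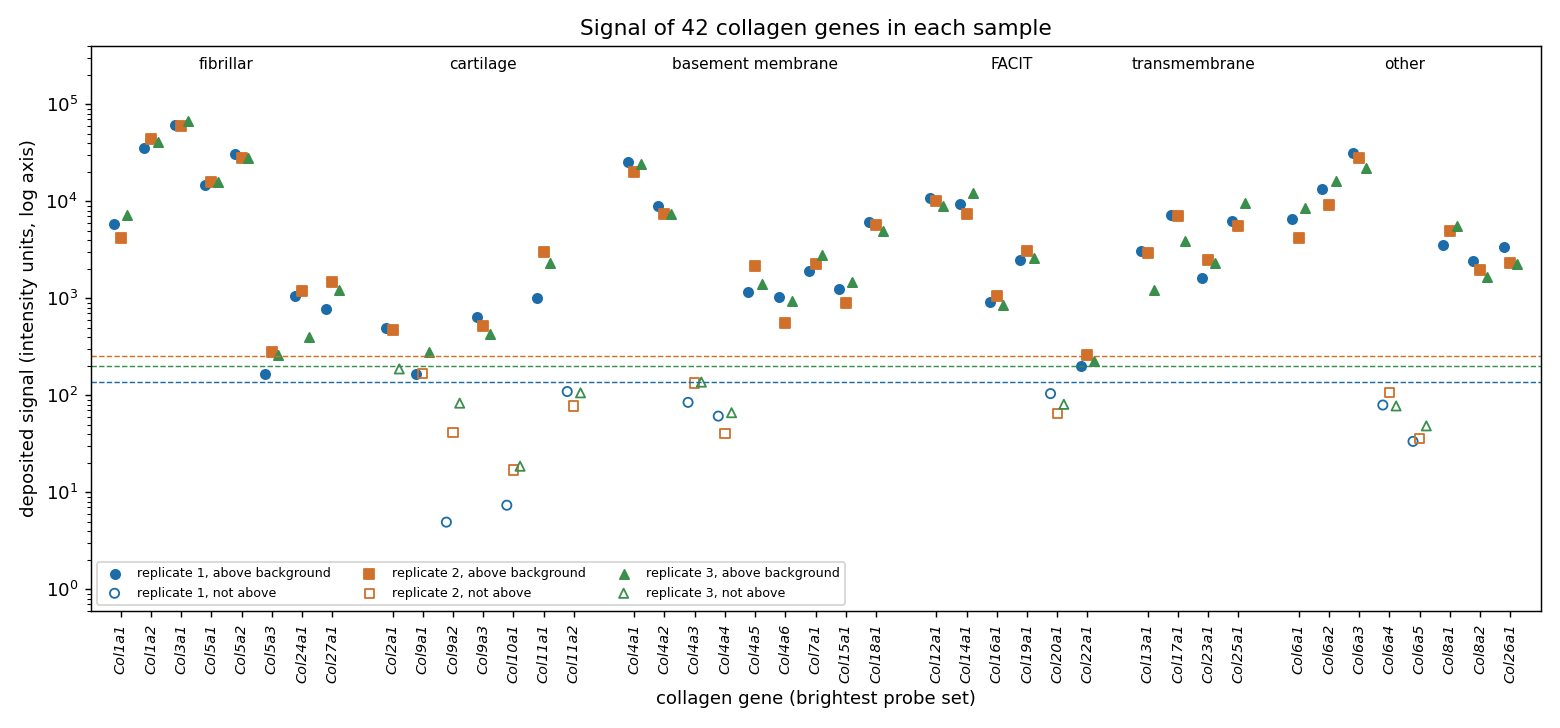
Deposited signal (log axis) of the brightest probe set of each of the 42 collagen genes, grouped by class, in replicates 1, 2 and 3. Filled symbols lie above that sample's background (dashed lines at 136, 253 and 199) and open symbols do not; the open symbols collect in the cartilage class, in Col4a3 and Col4a4, and in Col20a1, Col6a4 and Col6a5.

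The promoters of type IV collagens are shown because these genes lie in the genome as neighbouring pairs. Both genes of a pair fell on the same side of background, which was not particular to type IV. Col3a1 and Col5a2, and Col6a1 and Col6a2, are neighbours too, with both above it in 3 of 3 samples. The neighbours Col6a4 and Col6a5 were above it in none. Of the neighbours Col9a1 and Col19a1, Col9a1 was above it in 2 samples and Col19a1 in 3. Both genes of the Col4a1 and Col4a2 pair were above background in 3 of 3 samples, as were both of the Col4a5 and Col4a6 pair, while both of the Col4a3 and Col4a4 pair were above it in none. The windows run from 250 bases before to 50 after a start site, 5′ to 3′ on the gene's strand, from RefSeq on GRCm38.p6. Capitals mark CCAAT and GGGCGG (a GC box) on either strand. The windows of Col4a1 (chr8:11312777-11313076, minus strand) and Col4a2 (chr8:11312555-11312854, plus strand) share 78 bases, and the start sites are 21 bases apart on opposite strands. Those of Col4a5 (chrX:141475169-141475468, plus strand) and Col4a6 (chrX:141474027-141474326, minus strand) do not overlap, with start sites 1343 bases apart. The window of Col4a4 lies at chr1:82586800-82587099 on the minus strand, and none is shown for Col4a3.
Col4a1: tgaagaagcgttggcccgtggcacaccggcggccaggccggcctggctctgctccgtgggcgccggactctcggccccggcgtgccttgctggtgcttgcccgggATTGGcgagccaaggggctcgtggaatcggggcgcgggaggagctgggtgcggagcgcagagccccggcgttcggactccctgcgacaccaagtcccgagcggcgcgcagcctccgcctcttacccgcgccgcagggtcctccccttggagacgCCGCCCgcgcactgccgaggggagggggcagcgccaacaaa
Col4a2: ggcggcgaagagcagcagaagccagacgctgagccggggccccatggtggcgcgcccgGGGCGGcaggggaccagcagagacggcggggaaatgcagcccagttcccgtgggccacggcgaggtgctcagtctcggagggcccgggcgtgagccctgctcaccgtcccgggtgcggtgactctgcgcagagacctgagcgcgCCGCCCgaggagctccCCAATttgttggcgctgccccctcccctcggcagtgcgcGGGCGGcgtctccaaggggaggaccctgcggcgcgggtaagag
Col4a5: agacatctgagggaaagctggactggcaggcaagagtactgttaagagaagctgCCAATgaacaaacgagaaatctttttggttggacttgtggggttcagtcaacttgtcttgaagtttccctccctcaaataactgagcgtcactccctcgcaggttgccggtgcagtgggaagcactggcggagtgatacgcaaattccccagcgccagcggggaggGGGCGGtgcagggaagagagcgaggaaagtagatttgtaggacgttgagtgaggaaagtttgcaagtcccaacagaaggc
Col4a6: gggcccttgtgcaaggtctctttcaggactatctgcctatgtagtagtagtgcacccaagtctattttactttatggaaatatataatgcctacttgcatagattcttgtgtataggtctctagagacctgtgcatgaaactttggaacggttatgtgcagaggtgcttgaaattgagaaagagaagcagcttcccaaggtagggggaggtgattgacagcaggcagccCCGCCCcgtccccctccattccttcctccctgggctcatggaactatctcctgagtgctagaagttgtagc
Col4a4: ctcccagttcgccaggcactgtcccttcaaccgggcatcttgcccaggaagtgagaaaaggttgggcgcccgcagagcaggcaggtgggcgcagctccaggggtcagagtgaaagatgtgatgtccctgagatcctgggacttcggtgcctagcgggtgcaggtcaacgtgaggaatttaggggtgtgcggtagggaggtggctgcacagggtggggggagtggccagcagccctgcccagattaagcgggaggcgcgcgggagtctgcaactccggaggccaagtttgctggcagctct

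The window of Col4a2 held CCAAT 32 bases before its start site and 3 GC boxes, and that of Col4a1 held CCAAT on the opposite strand and 1 GC box. The GC box of Col4a1 and the last of Col4a2 are the same bases, in the stretch that both windows share. Col4a5 had 1 of each, Col4a6 a GC box alone, and Col4a4 held neither. Over 33 collagen genes with a window in the RefSeq table, GGGCGG was found in 22 of 36 windows (61.1%), against 35.7% of all 32851 windows of that length. Unlike the windows of all genes, the collagen windows were not filtered by length, and any on 1 chromosome were left out. CCAAT was found in 36.1% against 37.4%, and TATAAA in 13.9% against 13.6%. These are matches of letters in a fixed window and say nothing of the factors that bind there.

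All 8 genes of the fibrillar class, which leaves out Col2a1, Col11a1 and Col11a2, were present. On their brightest probe sets 4 of them were close between samples. Col3a1, the chain of type III fibrils of soft embryonic connective tissue, read 61316, 60002 and 67093, or 62804 ± 3772 (SD, n = 3). Col1a2, a chain of type I collagen, read 35412, 43728 and 40797. Its SD on the log2 scale after alignment of the samples was 0.06, against a median of 0.33 over all genes above background in 3 of 3. Col5a1 and Col5a2, chains of the type V collagen that sets the diameter of type I fibrils, read 14686, 15855 and 15708 and 30848, 27658 and 28108, with SDs of 0.07 and 0.19. On these probe sets the 4 genes thus varied less than the median gene, but each had another one above background that varied more. A second probe set had a log2 SD of 0.70 for Col1a2, 0.35 for Col3a1, 0.49 for Col5a1 and 0.43 for Col5a2. The remaining probe set of Col5a1, also above background, had an SD of 0.23.

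The partner chain of type I collagen was less even. Col1a1 read 5815, 4226 and 7197, lowest in replicate 2, with a log2 SD of 0.47. Col27a1, a long fibrillar chain of cartilage and other tissues, read 782, 1473 and 1218, lowest in replicate 1 on this probe set. Its other probe set read 980, 663 and 910 and was highest in replicate 1 after alignment. Col24a1, known from developing bone, read 1059.7, 1182 and 398, and its value in replicate 3 stood apart. It was 2.83-fold lower there than in replicate 1 and 2.69-fold lower than in replicate 2, while replicates 1 and 2 differed 1.05-fold. Col5a3 read 165, 279.6 and 261 and lay just above background in each sample.

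Cartilage collagens were the class with the fewest genes above background. Col11a1, which nucleates the fibrils of cartilage and is also made by other mesenchyme, read 999, 3008 and 2327. Col9a3, a chain of the FACIT that coats cartilage fibrils, read 648, 523 and 427. Both were above background in all samples. Col2a1, the main fibrillar collagen of cartilage, read 501, 473 and 187 and was not above background in replicate 3. After alignment it was at least 2.68-fold higher in replicate 1 and at least 2.16-fold higher in replicate 2 than in replicate 3. Col9a1, another chain of that FACIT, had signals of 167, 169 and 279, of which the middle value, in replicate 2, lay below background. Col9a2 (4.94, 41.1 and 83.2), Col10a1 (7.38, 17.1 and 18.6), the collagen of hypertrophic cartilage, and Col11a2 (109.7, 77.9 and 106) were above it in none.

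Cartilage markers were read beside them. Of 11, 3 were above background in 3 of 3 samples, namely Sox9, the master regulator of chondrocytes (497, 1101 and 808), Sox6 (1725, 1032 and 908) and the link protein Hapln1 (1461, 1999.5 and 1779). Sox5 was above it in replicates 1 and 3, and Acan, the main cartilage proteoglycan, in replicate 1 alone (245, 214 and 189). Matn1, Matn3, Comp, Cnmd, Chad and Snorc were above it in none. The summed signal of the list was 4895, 5014 and 4210.5. In such bulk tissue fewer cells of a type and less RNA per cell cannot be told apart, here or below.

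Basement membrane collagens split by the type IV pairs shown above. Col4a1 and Col4a2, which form the trimer found in nearly every basement membrane, read 25747, 20153 and 24184 and 8937, 7376 and 7457. Both were highest in replicate 1 and lowest in replicate 2 after alignment, with log2 ranges of 0.58 and 0.50 on these probe sets. The X-linked Col4a5 and Col4a6, chains of the epithelial basement membrane, read 1170.5, 2132 and 1420.4 and 1032, 560.5 and 948. On these probe sets they went different ways, with Col4a5 highest and Col4a6 lowest in replicate 2. In replicate 3, the sample with Xist signal, neither lay above both other samples on these, but both did on their dimmer probe sets. Col4a3 (84.8, 134 and 137) and Col4a4 (61.2, 40.8 and 66.3), which join Col4a5 in the mature filter of the kidney, were not above background in any sample.

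The other genes of this class were all present. Col7a1, whose anchoring fibrils fasten epidermis to dermis, read 1935, 2275 and 2769.7, and was 1.35-fold higher in replicate 3 than in replicate 1 and 1.34-fold higher than in replicate 2. Col15a1 and Col18a1, the latter the source of endostatin, read 1237, 899 and 1464 and 6120.2, 5771 and 4979.9. Their log2 SDs were 0.45 and 0.20, so Col18a1 was the more even of the pair on these probe sets. The other probe set of Col18a1 had an SD of 0.40.

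FACIT collagens, with the Col9 chains left out, were present for 5 of 6 genes. Col12a1 and Col14a1, which decorate type I fibrils, read 10748, 10077 and 8870.4 and 9379, 7403 and 12262. Col16a1 read 913, 1069 and 859 and Col19a1, known from embryonic muscle, 2463, 3067 and 2614. The log2 SDs were 0.05 for Col19a1, 0.10 for Col16a1 and 0.20 for Col12a1, but 0.44 for Col14a1, which was lowest in replicate 2. The median over the brightest probe sets of the 5 genes was 0.10, against 0.32 over all 32 collagen genes. Other probe sets were less even: a second one of Col19a1 read 1145, 3656 and 2333, with an SD of 0.73, and one of Col12a1 read 419, 981 and 613, with an SD of 0.50. Over all 8 FACIT probe sets above background the median was 0.23.

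Of the remaining FACIT genes, Col20a1 read 104, 64.7 and 81 and was above background in no sample. Col22a1, a marker of the junction between muscle and tendon, read 201, 260.4 and 224 on its brightest probe set, just above background in each. Its other probe sets read 273, 193 and 62.2 and 222, 190.2 and 16.4 and were above it in replicate 1 alone. Of 9 skeletal muscle markers 8, 6 and 4 were above background in replicates 1, 2 and 3, and the list's summed signal was 15179, 3850.4 and 1868. Its part in the Col22a1 values was not tested.

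All 4 transmembrane collagens were present, and they moved in different directions between samples. Col13a1, found at cell adhesions and the neuromuscular junction, read 3066, 2936 and 1226. Replicate 3 was 2.65-fold lower than replicate 1 and 2.17-fold lower than replicate 2, which differed 1.22-fold from each other. Col17a1, the hemidesmosome collagen of basal keratinocytes, read 7251, 7013 and 3897, also lowest in replicate 3. Col25a1, known from developing neurons and muscle, read 6203, 5610.3 and 9576, highest in replicate 3, and Col23a1 read 1632, 2491 and 2329, lowest in replicate 1.

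Epithelial markers were read beside Col17a1, since it belongs to that tissue. Their summed signal over 8 genes was 107488, 97550.1 and 82024, and the median difference of replicate 3 from the other samples was -0.38 on the log2 scale. That median includes Itgb4 and Lamb3, which have no exact difference because both lay below background in replicate 3. Differences ranged over the 6 markers above background in all samples: Epcam, an adhesion molecule of epithelia, was at -0.03, Trp63, the regulator of basal cells, at -0.10, Itga6 at -0.24, Cdh1 at -0.31, Krt5 at -0.45 and Krt14 at -0.72. Itgb4, the hemidesmosome integrin, read 261, 380.2 and 187 and Lamb3 374, 407 and 196, and neither was above background in replicate 3. Whether the amount of epithelium contributed to the Col17a1 values was not tested.

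Among the other collagens, type VI chains form beaded microfibrils around cells. Col6a1 and Col6a2, which are neighbours in the genome, read 6532, 4161 and 8628 and 13309.7, 9089 and 16395. Both were lowest in replicate 2 and highest in replicate 3, 2.29-fold and 1.99-fold apart, on the 1 probe set of Col6a1 and the brightest of Col6a2. The other probe set of Col6a2 read 1929, 1779.9 and 1878, 1.16-fold apart between those samples and highest in replicate 1 after alignment. Col6a3, the chain that joins them in the trimer, read 31594, 28168 and 22060.4 and did not follow that order, being lowest in replicate 3. Its relatives Col6a4 (79.6, 108 and 77.9) and Col6a5 (33.6, 35.9 and 48.5) were above background in no sample. Col8a1 and Col8a2, of the network-forming type VIII, read 3522, 5005 and 5526 and 2428, 1977 and 1672, again in opposite order between replicates 1 and 3. Col26a1, which is known from developing gonads, read 3376, 2326 and 2244, highest in replicate 1 on this probe set. Its other probe set read 5.57, 229 and 240, lowest in replicate 1 and above background in replicate 3 alone.

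**Figure D2:**
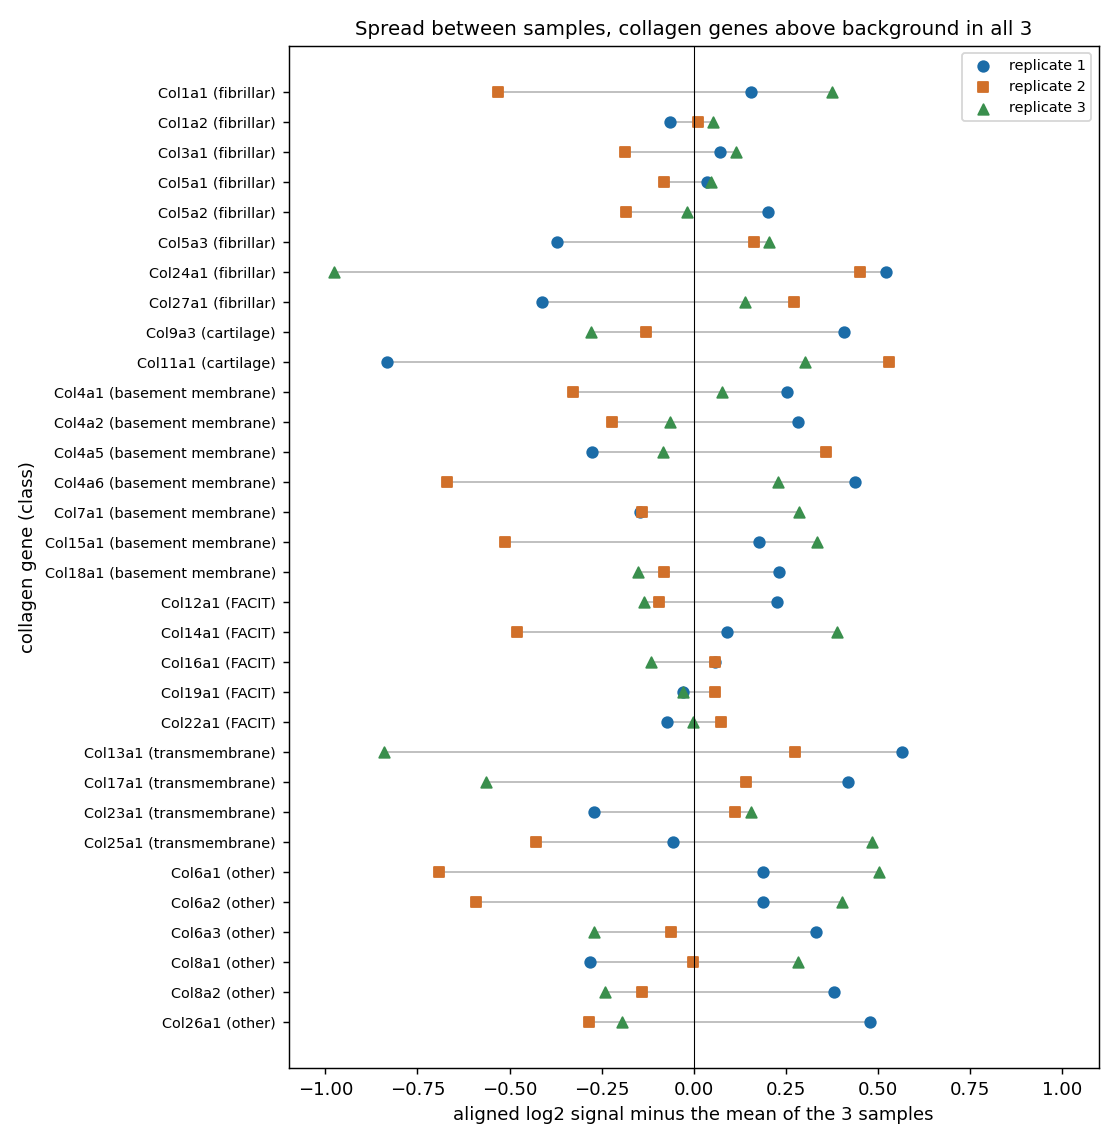
Aligned log2 signal of each of the 32 collagen genes above background in 3 of 3 samples, minus the gene's own mean, for replicates 1, 2 and 3; a grey line joins the lowest and highest sample. Col1a2, Col5a1, Col19a1 and Col22a1 have SDs under 0.1, while Col24a1, Col13a1, Col11a1, Col6a1 and Col4a6 span more than 2-fold.

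As a set the collagen genes varied about as much as other genes. The median log2 SD was 0.324 over the 32 and 0.330 over the 11003 genes above background in 3 of 3 samples, and 17 of the 32 lay under the latter. Over all 54 collagen probe sets above background in 3 of 3 it was 0.396, beside 0.364 over all such probe sets. On the brightest ones SDs ranged from 0.05 (Col19a1) to 0.85 (Col24a1). Between replicates 1 and 2, 2 of 32 collagen genes (Col11a1 and Col4a6) differed over 2-fold, against 12.3% of genes. Between replicates 1 and 3 these were 3 (Col24a1, Col11a1 and Col13a1), against 7.63%, and between replicates 2 and 3 they were 3 (Col24a1, Col13a1 and Col6a1), against 7.23%. As shares of the 32 these are 6.25%, 9.38% and 9.38%, below the share of all genes for the first pair and slightly above it for both pairs with replicate 3. The pairs share samples. After alignment replicate 1 was the highest sample for 13 of the 32 genes, replicate 2 for 6 and replicate 3 for 13. Over all genes those shares were 55.5%, 19.1% and 25.4%.

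The order of the samples rested on the probe set for many genes. Of 27 collagen genes with several probe sets, 19 had 2 or more above background in 3 of 3 samples, and 13 of these 19 named different samples as the highest. Col11a1 was lowest in replicate 1 on its brightest probe set (999, 3008 and 2327) and lowest in replicate 2 on the other (1405, 790.0 and 2615). Col4a1 was lowest in replicate 2 on its brightest (25747, 20153 and 24184) and highest there on the other (2190.1, 7403 and 3475). The X-linked Col4a5 was highest in replicate 3 on its dimmer probe set (786, 1175 and 1943), unlike on its brightest, and Col4a6 likewise (280.0, 394 and 659).

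For type I collagen the probe sets differed within a chain. A further probe set of Col1a2 read 30893, 15872 and 33531, lowest in replicate 2 as was Col1a1 on both of its probe sets (5815, 4226 and 7197 and 932, 729 and 975). The brightest of Col1a2 (35412, 43728 and 40797) did not show that order. The genes that stood apart in replicate 3 could be checked less, since Col24a1, Col13a1, Col17a1 and Col2a1 have 1 probe set each.

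**Figure D3:**
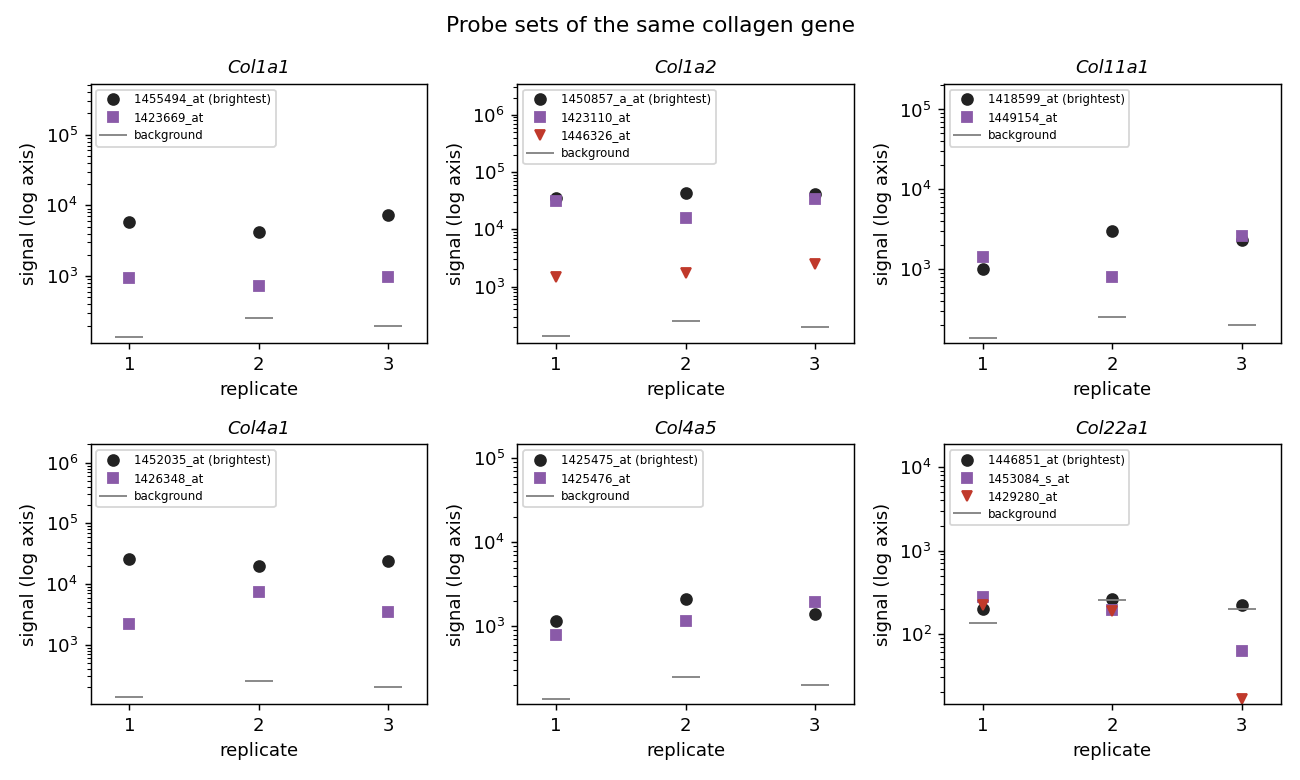
Deposited signal (log axis) of each probe set of Col1a1, Col1a2, Col11a1, Col4a1, Col4a5 and Col22a1 in replicates 1, 2 and 3, with each sample's background as a grey bar. For Col11a1, Col4a1 and Col4a5 the probe sets place different samples highest, and for Col22a1 the dimmer probe sets fall below background in replicates 2 and 3.

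The landmark was compared by setting replicate 3 against replicates 1 and 2. Col24a1 had the lowest log2 difference, -1.46 ± 0.60 (SE), followed by Col13a1 (-1.26 ± 0.61) and Col17a1 (-0.84 ± 0.61) among the 32 genes above background in 3 of 3 samples. Col2a1 and Col9a1, below background in 1 sample each, have no exact difference and are not placed in that order. The highest were in Col6a1 (0.75 ± 0.71), Col25a1 (0.73 ± 0.62), Col6a2 (0.60 ± 0.69) and Col14a1 (0.58 ± 0.65). With limma and a Benjamini-Hochberg threshold of 0.05, 0 of 34 collagen genes passed, beside 0% of the 29051 probe sets fitted. At an unadjusted p under 0.05 the counts were 0 of 34 and 2.08%. The smallest p of a collagen gene was 0.0712 for Col24a1 (limma adjusted p = 1). The median difference was 0.07 over the 32 collagen genes and -0.01 over all genes above background in 3 of 3. The fit leaves 1 residual degree of freedom, and the landmark cannot be told apart from sex or from any other feature of that 1 sample.

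Replicates 1 and 2 were each set against the remaining pair in the same way, and the 3 contrasts share all samples. In replicate 1 the lowest of the 32 was Col11a1 (-1.25 ± 0.48), with its probe sets in disagreement as above, and the highest were Col13a1 (0.85 ± 0.65) and Col24a1 (0.78 ± 0.75). In replicate 2 the lowest were Col6a1 (-1.04 ± 0.47), Col4a6 (-1.004 ± 0.461), Col6a2 (-0.89 ± 0.46), Col1a1 (-0.80 ± 0.46), Col15a1 (-0.77 ± 0.46) and Col14a1 (-0.72 ± 0.47). The highest there was Col11a1 (0.80 ± 0.70). In both contrasts limma called 0 of 34 collagen genes, with 0% of probe sets called over all. At an unadjusted p under 0.05 there were 0 collagen genes in each, against 11.4% of probe sets for replicate 1 and 5.03% for replicate 2. The median difference of the collagen genes was 0.25 for replicate 1 and -0.13 for replicate 2, and over all genes it was 0.26 and -0.21. The sign of such medians is not fixed: unaligned, that of replicate 2 was 0.05, with alignment on all probe sets that of replicate 3 was -0.01, and against replicate 3 alone that of replicate 1 was -0.03. A p above the threshold in this small design does not show that the samples were alike.

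By class, on the brightest probe sets, 5 of 8 fibrillar genes lay above both other samples in replicate 3 and 1, Col24a1, below both. The smallest log2 differences among those 5 were 0.07 for Col5a1 and 0.08 for Col1a2. Other probe sets above background also placed replicate 3 highest for Col1a2 and Col3a1, but not for Col1a1 and Col5a1. Of the 7 basement membrane genes above background 4 lay below both others in replicate 2. Of the 4 transmembrane genes 2 lay above and 2 below both others in replicate 3. Over all genes 25.4% lay above and 30.3% below both others in replicate 3, and 51.5% below both in replicate 2.

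Genes that modify and fold collagen chains were nearly all present. Those of processing and cross-linking, receptors and turnover together had a share near that of all genes. Among 47 such genes 34 were present, 8 lay above background in 1 or 2 samples and 5 in none, beside the 60.5% of all genes that were present. Outside chain modification and folding it was 15 of 27, or 55.6%. The list was drawn up by role, with earlier results of these data known. For chain modification and folding it was 19 of 20 genes. P4hb, a subunit of the prolyl hydroxylase that stabilises the helix, read 41925, 35125 and 44143. Serpinh1, the collagen chaperone of the endoplasmic reticulum, read 17089, 13307 and 18661 and the isomerase Ppib 17978, 17805 and 13271. Colgalt2, a glycosyltransferase of collagen, was the exception at 163, 36.2 and 475, below background in replicate 2.

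For propeptide processing and cross-linking it was 5 of 10. Lox, the lysyl oxidase that cross-links fibrils, read 22632, 14945 and 28666, Pcolce, which enhances removal of the C-terminal propeptide, 12030.2, 10547 and 5532, and Adamts3, which removes the N-terminal one, 4775, 2899 and 3218. Loxl1 was above background in replicates 1 and 3, Tll1 and Pcolce2 in replicate 1, Loxl4 in replicate 3 and Tll2 in none.

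Receptors had 5 of 8. Ddr2 and Ddr1, the receptor kinases that bind fibrils and other collagens, read 11162, 11131 and 13496 and 5544, 5734 and 7021, and Itgb1, the shared chain of collagen-binding integrins, 2186, 3593 and 3046. The integrin chain Itga2 was above background in replicate 1 alone, as was the platelet receptor Gp6. Lair1, an inhibitory receptor of leukocytes, was above it in none. Turnover genes had 5 of 9, with the gelatinase Mmp2 at 31372, 20315 and 28035, the endocytic receptor Mrc2 at 5579, 5999.6 and 4024 and the dipeptidase Pepd, which frees proline, at 3054, 2640.5 and 2386. Mmp9 was above background in replicates 1 and 3, and Mmp1a, Mmp8 and Mmp13 were above it in none.

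**Figure D4:**
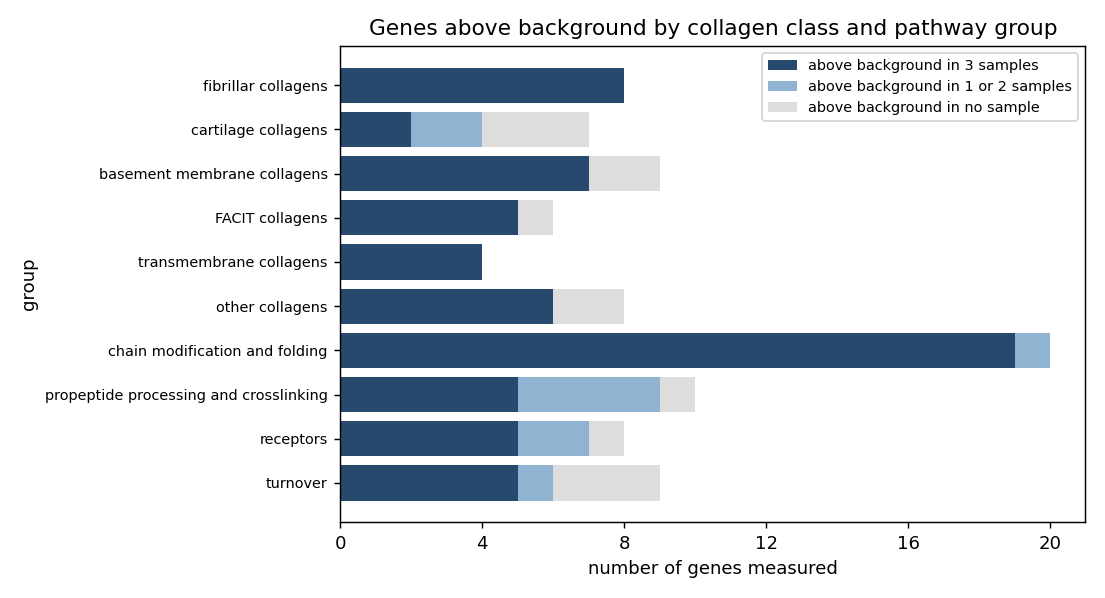
Number of genes measured in each collagen class and pathway group, split by whether the brightest probe set was above background in 3 samples, in 1 or 2, or in none (stacked bars from 0). The fibrillar (8 of 8), transmembrane (4 of 4) and chain modification (19 of 20) groups are nearly full, and the cartilage class has 2 of 7.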

How the data were processed

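RNA of 3 samples was measured on 1 array each after 2 rounds of amplification, per the labels' protocols. The deposited values are linear intensities that the authors made with GCOS, as the submitters' processing notes list; no version or algorithm is given in the sources used here. Each sample had a trimmed mean (2% cut from either tail) of 1500.01, so the deposited values are already scaled. Median signals were 205, 334 and 272.

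Of 45101 probe sets 64 controls were set aside. A platform annotation gave 1 symbol to 34945, several to 932 and none to 9160. Through Entrez identifiers 34741 matched RefSeq (GRCm38.p6), and 0 symbols changed. The brightest probe set by mean stood for a gene. No value was available for 3 listed collagen genes, Col6a6, Col21a1 and Col28a1, which were not analysed here. A floor of 1 was applied before taking log2, and samples were aligned on the median of the 21597 probe sets above background in 3 of 3, whose medians differed by 0.23 (0.70 over all probe sets). Signals are printed as deposited, while folds, SDs of log2 values and differences are after alignment. A fold against a sample below background is a bound, taken against that background or the signal if higher.

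Each contrast of 1 sample with the others was fitted with limma 3.58.1 (lmFit and eBayes, two-sided, Benjamini-Hochberg) in R 4.3.3 over the 29051 probe sets that exceeded background in any sample, after a test on simulated data. Nothing in the labels says how the embryos relate, so the spread mixes animals, dissection and array. The rule for naming was every collagen gene; of each pathway list, the brightest genes and those not above background. Members and lists were chosen with earlier results of these data known. Tables were read with pandas 2.3.3 in Python 3.11.15. Alternatives covered the background percentile, the probe set rule, alignment, floor, filter, variance trend and leaving out each sample.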

Additional observations from a re-analysis of the deposited data

How the results depend on the processing

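The counts of collagen genes above background kept within 1.5 times under every alternative tried: 30 to 33 of 42 over the 90th and 99th percentile backgrounds, any probe set, the median over probe sets and each sample left out, and 31 to 37 of 47 for pathway genes. With the median over probe sets in place of the brightest, 17 of 22 levels moved by over 1 SD. Leaving out a sample moved 0 of 32 by as much, but a mean of 3 samples cannot move that far when 1 is left out. That count therefore says nothing of how firm the levels are. When samples were aligned over all probe sets, the median SD of the collagen genes became 0.496 and the median difference of replicate 1 0.65, and limma called 86 probe sets for replicate 3, 141 for replicate 1 and 251 for replicate 2. With the fit limited to the 21597 probe sets above background throughout it called 1 for replicate 3 and 494 for replicate 1, and with a variance trend 546 for replicate 1. The cause was not tested. No collagen gene was called in any of the 24 fits. Among the 32 collagen genes present, the differences over 2-fold kept their sign under each alternative of alignment. These were Col24a1 and Col13a1 in replicate 3, Col11a1 in replicate 1, and Col6a1 and Col4a6 in replicate 2. The other alternatives could not change a sign. Floor, filter and trend left these differences as they were. Leaving out a sample could not reverse them, since each was of a sample that lay below both others. The probe set was a further choice, added after seeing the data: on the other probe set Col11a1 turned to 0.12 and Col4a6 was -0.31. Signals close to background, as of Col5a3 and Col22a1, limit the counts. No paired analysis was possible because the samples form 1 group.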

Other observations

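Some genes of collagen handling, chosen after their values were seen, had a larger spread between samples than the 32 collagen genes present. On the brightest probe sets the log2 SDs of the 32 reached 0.85, and the other probe set of Col11a1 had 0.94. Plod2, which hydroxylates lysines for cross-links, read 682, 5004 and 2299.6 in replicates 1, 2 and 3, with a log2 SD of 1.34. Mia3, which loads procollagen into transport carriers, read 3105, 20621 and 14205, with an SD of 1.35. Plod2 has 2 probe sets and Mia3 has 4, of which only the brightest were compared. Both were lowest in replicate 1, the sample with the highest 3′ to 5′ ratios of control genes, whose part was not tested. P4ha3, a prolyl hydroxylase subunit, read 188, 708 and 204, highest in replicate 2 and close to background in replicate 3, with an SD of 0.96. The related subunits P4ha1 (4527, 2673 and 4354) and P4ha2 (3387, 1776 and 3077) were lowest there, with SDs of 0.53 and 0.61.

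Tendon and bone markers were read too, since Col24a1 and Col22a1 are known from those tissues. Mkx, a transcription factor of tendon, read 5573, 4021 and 4465, and Scx 208, 651 and 649, lowest in replicate 1. Tnmd read 193, 426 and 145 and was not above background in replicate 3. The bone regulator Sp7 read 488, 676 and 489, Alpl 316, 426 and 456 and Phex 408, 361 and 647. Their log2 differences of replicate 3 from the other samples were -0.21, 0.34 and 0.78, beside -1.46 for Col24a1. Ibsp and Dmp1, genes of mineralising bone, were above background in no sample.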
